A study of Mus musculus with 6 samples.

Results

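The CXC chemokine genes were followed in RAW 264.7 cells, an established mouse macrophage line from a tumour induced by Abelson murine leukaemia virus, after treatment with bacterial lipopolysaccharide (LPS). The members were fixed by name as Cxcl1, Cxcl2, Cxcl5, Cxcl9, Cxcl10, Cxcl11, Cxcl12, Cxcl13, Cxcl14 and Cxcl16, and every probe annotated with 1 of these 10 symbols was taken. That gave 19 of the 16281 probes in the value table. An exact 0 was counted as not measured, which left 12 probes of 9 genes with a value on all 6 arrays. The remaining gene, Cxcl2, had a value on 4 arrays. Treated cells received LPS at 100 ng/ml together with LPS-binding protein (LBP, the serum protein that passes LPS to CD14 and TLR4) at 100 pM, and untreated cells received neither. Both were kept for 4 h, and each array compared the total RNA of one with that of the other. On 3 arrays the treated RNA carried Cy5 and on 3 it carried Cy3, numbered as sets 1 to 3 in each orientation. All RNA came from a single cell line, and part of the labels spells its name RAW 264.4.

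Chemokines are small secreted proteins that guide leukocytes along a gradient through G protein-coupled receptors, and the CXC family carries 1 residue between the first pair of conserved cysteines. Members with a Glu-Leu-Arg (ELR) motif before these cysteines, such as Cxcl1, Cxcl2 and Cxcl5, bind Cxcr2 and attract neutrophils. Cxcl9, Cxcl10 and Cxcl11 lack the motif, are induced by interferons and attract activated T cells and natural killer cells through Cxcr3. Cxcl12 and Cxcl13 are mainly made by stromal cells, and Cxcl16 is made as a membrane protein with a chemokine domain on a stalk. In macrophages, LPS acts through TLR4 to free NF-κB for the nucleus and to start interferon-β synthesis.

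Promoter windows of 7 of the 10 members were matched by symbol in the RefSeq table of build GRCm38.p6, and 4 are shown because they belong to neighbouring genes whose RNA had very different ratios. Each is the 250 bases before the annotated start of transcription, 5′ to 3′ on the gene's own strand. Capitals mark matches, on either strand, to the NF-κB consensus, to the interferon-stimulated response element (ISRE), to the AP-1 site (TGANTCA) and to the TATA box (TATAAA). Cxcl1 lies at chr5:90890995-90891244, plus strand, Cxcl2 at chr5:90903649-90903898, plus strand, Cxcl9 at chr5:92328080-92328329, minus strand, and Cxcl10 at chr5:92348890-92349139, minus strand.
Cxcl1: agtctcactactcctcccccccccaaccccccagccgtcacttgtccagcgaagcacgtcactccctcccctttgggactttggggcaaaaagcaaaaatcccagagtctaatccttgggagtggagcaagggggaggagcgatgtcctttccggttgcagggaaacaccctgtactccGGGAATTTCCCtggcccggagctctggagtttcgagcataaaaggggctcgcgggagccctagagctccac
Cxcl2: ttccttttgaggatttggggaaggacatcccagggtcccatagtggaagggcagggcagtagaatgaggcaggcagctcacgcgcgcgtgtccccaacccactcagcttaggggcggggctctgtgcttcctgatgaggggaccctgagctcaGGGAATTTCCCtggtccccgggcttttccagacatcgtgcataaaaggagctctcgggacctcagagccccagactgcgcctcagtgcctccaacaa
Cxcl9: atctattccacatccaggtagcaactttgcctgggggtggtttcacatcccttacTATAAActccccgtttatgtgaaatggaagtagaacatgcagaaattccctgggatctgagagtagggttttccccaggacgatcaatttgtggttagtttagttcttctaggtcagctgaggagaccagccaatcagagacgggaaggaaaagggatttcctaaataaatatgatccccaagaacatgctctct
Cxcl10: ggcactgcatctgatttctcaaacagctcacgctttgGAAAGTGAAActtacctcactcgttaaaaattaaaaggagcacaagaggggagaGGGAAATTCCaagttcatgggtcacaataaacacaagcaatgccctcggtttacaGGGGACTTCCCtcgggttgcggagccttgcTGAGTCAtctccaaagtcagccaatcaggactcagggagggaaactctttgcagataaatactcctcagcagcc

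Cxcl1 and Cxcl2 hold the same matched letters, GGGAATTTCCC, in which a match on each strand overlaps, from base -71 to base -61 in Cxcl1 and from -97 to -87 in Cxcl2. The Cxcl10 window has an ISRE match at -213 to -204, NF-κB matches at -159 to -150 and -104 to -94, and an AP-1 match at -74 to -68. Cxcl9 has only a TATA box match among these motifs, at -195 to -190. With the shorter NF-κB form GGGANTTCC, it has a match at -42 to -34, which is in lower case above. Among the member windows not shown, that of Cxcl14 has an ISRE match at -172 to -163 and that of Cxcl13 a TATA box match at -46 to -41. Of the 7 member windows, 3 hold the NF-κB consensus, 2 the shorter form, 2 the ISRE, 1 the AP-1 letters and 2 the TATA box letters. Of all 32851 windows of this length, 7.25% hold the NF-κB consensus, 1.43% the shorter form, 2.98% the ISRE, 6.75% the AP-1 letters and 12.4% the TATA box letters. A match is a description of the letters and not evidence of binding.

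Values below are deposited log2 ratios turned to treated over untreated RNA, so that 1 is a doubling and 0 no change. This direction is the likely one: it rests on the labels' naming of Cy5 as test and Cy3 as control, and the reverse reading would turn every sign. A set value is the mean of a set's 2 arrays, in which a gene's dye bias cancels, and means are given ± SD over n = 3 sets unless stated. That both arrays of a set held the same RNA is an assumption, and the labels do not say that sets were separate cultures. The p-values therefore reflect only how these set values scatter, which may be technical error alone. Single arrays can scatter more widely than set values. A gene was called when limma's p-value, adjusted by Benjamini-Hochberg over all 11364 features with a value on every array, was below 0.05. Between 14195 and 15027 values per array differed from 0, and the number of arrays limits the precision. The table holds ratios without intensities, so the level of any gene, and the levels of 2 genes against each other, are unknown.

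The response was split within the family. Cxcl10, Cxcl11, Cxcl16 and Cxcl9 rose, Cxcl14 fell, and Cxcl1, Cxcl5, Cxcl12 and Cxcl13 were not called. Of these 9 genes 5 were called, against 29.0% of all features, of which 14.0% rose and 15.0% fell. The median over the 9 genes was 0.034, beside 8.0e-04 over all features. Cxcl10, Cxcl11 and Cxcl16 rose at least 2-fold, which 1.87% of all features did. The 5 called genes were also the ones with the same sign on all 6 arrays, which 25.7% of features had. Cxcl2 rose in a separate fit of the features measured in at least 2 sets, in which 13.0% of 12192 rose. A change in RNA per cell and a change in the share of responding cells cannot be told apart in these bulk samples.

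**Figure D1:**
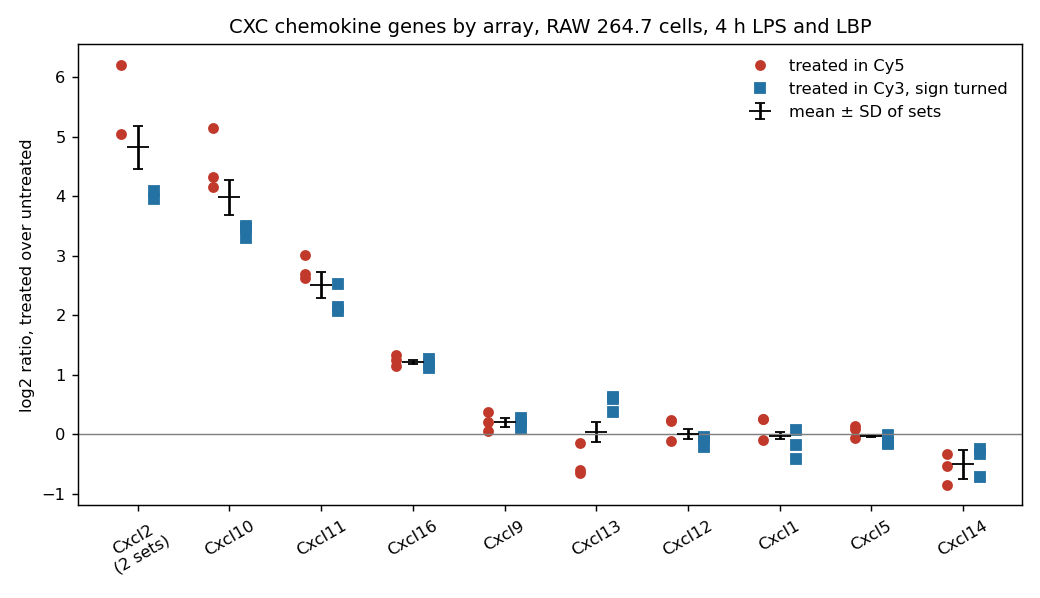
Log2 ratio of treated over untreated RNA (vertical axis) for each CXC chemokine gene on each array. Circles are arrays with treated RNA in Cy5, squares are sign-turned arrays with treated RNA in Cy3, and bars are the mean ± SD of the sets; Cxcl2 stands highest at 4.82, Cxcl14 lowest at -0.50, and the orientations of Cxcl13 lie on opposite sides of 0.

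The neutrophil attractants with an ELR motif had very unequal values. Cxcl2, also called macrophage inflammatory protein 2, was measured in sets 2 and 3 by 1 of its 2 probes. Its log2 ratios were 6.21 and 5.04 with treated RNA in Cy5 and 3.96 and 4.08 with it in Cy3. All 4 values were thus far above 0, and the Cy5 values exceeded the Cy3 values. The set values were 5.08 and 4.56, a mean of 4.82 ± 0.37 (n = 2 sets), or 28.3-fold (limma adjusted p = 1.11e-06 in the separate fit). That was the highest mean of the 12192 features in that fit. Both arrays of set 1 list the probe at exactly 0, and if such zeros were kept as values the mean was 3.21 and missed the threshold (limma adjusted p = 0.0599). The other Cxcl2 probe was listed at 0 on all 6 arrays.

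Cxcl1, also known as KC, was close to 0. Its measured probe gave 0.25, 0.25 and -0.090 with treated RNA in Cy5 and -0.18, -0.42 and 0.064 with it in Cy3. Positive and negative values were equally many, 3 and 3, and the orientations overlapped. The mean was -0.022 ± 0.061 with a 95% interval from -0.13 to 0.084 (limma adjusted p = 0.773). The second Cxcl1 probe was at exactly 0 on all 6 arrays, so the gene rests on 1 probe whose level is unknown. Cxcl5, a related neutrophil attractant known in mice as LIX, was at -0.026 ± 0.014 with a 95% interval from -0.12 to 0.070 (limma adjusted p = 0.695). The probe measured on all 6 arrays gave 0.095, 0.14 and -0.069 with treated RNA in Cy5 and -0.15, -0.16 and -0.012 with it in Cy3. The Cxcl5 set values were thus -0.026, -0.013 and -0.040, and in sets 1 and 2 they balance opposite signs. A second Cxcl5 probe was measured on only 3 arrays, at -0.19, 0.11 and 0.53. Members of this subfamily are close relatives, and which of them a probe can also bind is unknown here.

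The Cxcr3 ligands rose, by very different amounts. Cxcl10, the interferon-inducible protein IP-10, had log2 ratios of 4.32, 5.15 and 4.15 with treated RNA in Cy5 and of 3.30, 3.50 and 3.46 with it in Cy3. All 6 were high, and the orientations did not overlap. The mean was 3.98 ± 0.30, or 15.8-fold (limma adjusted p = 2.88e-07), the seventh highest among all features. Its other probe, measured on the set 3 array with treated RNA in Cy5 alone, gave 4.35 there. Cxcl10 exceeded the threshold in each of 17 alternative analyses; with exact zeros kept, its mean was 2.35.

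Cxcl11, the interferon-inducible chemokine I-TAC, was measured by 2 probes that both rose but by different amounts. Probe 13772 gave 3.75, 3.58 and 3.61 with treated RNA in Cy5 and 3.19, 2.92 and 3.05 with it in Cy3. Probe 9970 gave 1.52, 1.81 and 2.43, and 1.09, 1.23 and 1.98. Every value of the first probe was above every value of the second, and set 3 was the highest of the sets for the second probe in both orientations. Their means were 3.35 ± 0.11 and 1.68 ± 0.47 (limma adjusted p = 4.11e-08 and 1.16e-04 in the fit of single probes, in which 14.1% of probes rose). Averaged over both, the gene rose by 2.51 ± 0.22, or 5.71-fold (limma adjusted p = 7.21e-07). RefSeq lists Cxcl11 of the reference strain C57BL/6J as a transcribed pseudogene, and these ratios concern RNA only. Whether that entry holds for the Cxcl11 gene of this cell line was not tested.

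Cxcl9, also called monokine induced by interferon-γ, rose only slightly. Its measured probe gave 0.37, 0.061 and 0.21 with treated RNA in Cy5 and 0.19, 0.26 and 0.10 with it in Cy3. All 6 values were above 0, and the orientations overlapped. The mean was 0.20 ± 0.070, or 1.15-fold, with a 95% interval from 0.091 to 0.31 (limma adjusted p = 0.0154). The call ended without set 1 (0.16, limma adjusted p = 0.102) and on either orientation alone (0.21 and 0.19, limma adjusted p = 0.141 and 0.0929). With exact zeros kept, the value was 0.11 and was not called (limma adjusted p = 0.128). The second Cxcl9 probe had a value on 1 array, 0.074.

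Cxcl16, the membrane-bound ligand of Cxcr6 and a scavenger receptor for oxidised lipoprotein, had the most even rise. Its single probe gave 1.25, 1.33 and 1.14 with treated RNA in Cy5 and 1.11, 1.17 and 1.27 with it in Cy3. The 6 values lay close together and the orientations overlapped. The mean was 1.21 ± 0.037, or 2.32-fold (limma adjusted p = 1.25e-06), and the SD compares with a median of 0.074 over all features.

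Cxcl14, a chemokine of epithelial tissues, was the only member measured on all 6 arrays that fell. Averaged over 2 probes, it was at -0.34, -0.53 and -0.84 with treated RNA in Cy5 and at -0.34, -0.25 and -0.72 with it in Cy3. All 6 values were below 0, and set 3 was the lowest in both orientations. The mean was -0.50 ± 0.24, a ratio of 0.706 (limma adjusted p = 0.0036). The probes gave -0.50 ± 0.22 and -0.51 ± 0.28, so they differed by less than the spread between sets. Of 18 alternative analyses, 17 kept the call, and the test against a 1.5-fold change did not.

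Cxcl12 and Cxcl13, which direct stem cells and B cells through Cxcr4 and Cxcr5, were not called. Cxcl12 was at 0.077, 0.016 and -0.078 in the sets, a mean of 0.0048 ± 0.078 with a 95% interval from -0.11 to 0.12 (limma adjusted p = 0.955). Its second probe was measured on 4 arrays and had opposite signs in the orientations. It gave -0.32 with treated RNA in Cy5 in set 3, and 0.62, 0.25 and 0.33 with it in Cy3 in sets 1 to 3. Cxcl13 was at 0.034 ± 0.17 with a 95% interval from -0.12 to 0.19 (limma adjusted p = 0.76). That mean is the balance of opposite values in the orientations. Probe 10504 gave -1.60, -0.78 and -1.39 with treated RNA in Cy5 and 1.56, 1.35 and 1.09 with it in Cy3, while probe 14212 gave 0.31, 0.48 and 0.19 and then -0.31, -0.17 and -0.33. In each probe the orientations did not overlap, and the probes leaned in opposite ways. On the Cy3 arrays alone, Cxcl13 would have been called, at 0.53 (limma adjusted p = 0.00918), and on the Cy5 arrays alone its mean was -0.46.

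**Figure D2:**
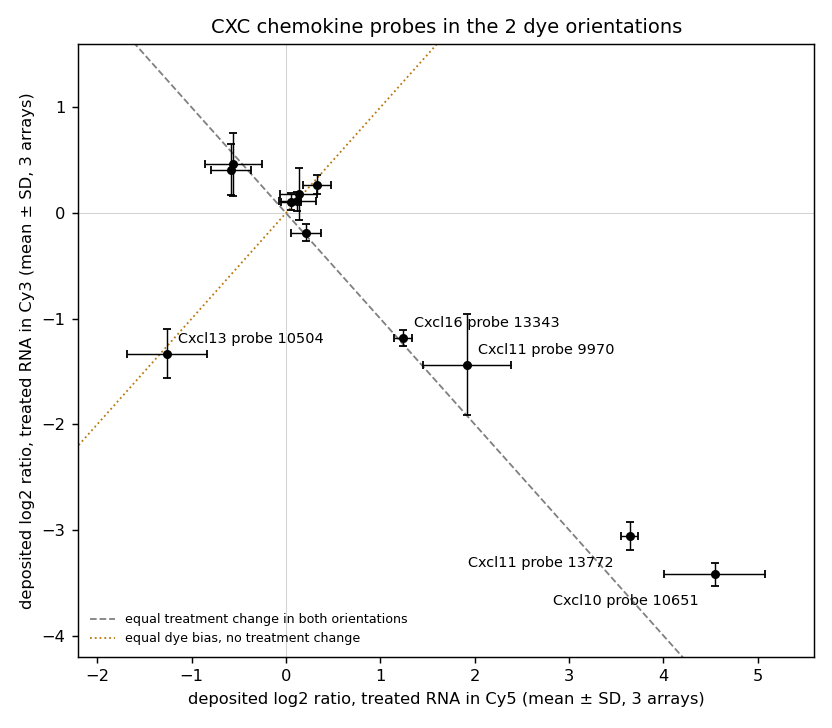
Deposited log2 ratios, not sign-turned, of the 12 CXC chemokine probes with a value on all 6 arrays: arrays with treated RNA in Cy5 on the horizontal axis and in Cy3 on the vertical axis, each the mean ± SD of 3 arrays. Points on the dashed line changed equally in both orientations, as Cxcl16 nearly did, and Cxcl13 probe 10504 lies on the dotted line of equal dye bias.

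The dye bias of each gene was tested on set means of unturned ratios, in which the treatment cancels. No feature was called in that test (0 of 11364, or 0.00%), although 2630 had an unadjusted p below 0.05 and fits of the 6 arrays with no block or a random block for the set called 554 and 151. Cxcl13 had a dye effect of -0.50 (limma adjusted p = 0.166, 0.0326 without a block and 0.0489 with a random block). Cxcl10 had 0.56 (limma adjusted p = 0.166, 0.0557 and 0.0795) and Cxcl11 0.27 (limma adjusted p = 0.166, 0.0807 and 0.122). By size, probe 10504 of Cxcl13 ranked 18 of 13415 probes, and the Cxcl10 probe ranked 79. For Cxcl10 the ratio with treated RNA in Cy5 exceeded that with Cy3 by 1.12.

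In order of change, the 9 genes measured on every array ran Cxcl10, Cxcl11, Cxcl16, Cxcl9, Cxcl13, Cxcl12, Cxcl1, Cxcl5 and Cxcl14. With the Cxcl11 probes averaged, the first 4 were separated by more than the spread between sets. Cxcl10 exceeded Cxcl11 by 1.47 ± 0.45, Cxcl11 exceeded Cxcl16 by 1.30 ± 0.23 and Cxcl16 exceeded Cxcl9 by 1.01 ± 0.10, each in 3 of 3 sets. The sizes of the gaps on either side of Cxcl11 depend on averaging its probes. The probes were at 3.35 ± 0.11 and 1.68 ± 0.47, between Cxcl10 at 3.98 and Cxcl16 at 1.21 ± 0.037. Whether the lower probe alone differed from Cxcl16 beyond the spread was not tested. From Cxcl9 to Cxcl5 no neighbours differed beyond their spread (differences of 0.17 ± 0.19, 0.029 ± 0.16, 0.027 ± 0.085 and 0.0047 ± 0.070). Cxcl5 exceeded Cxcl14 by 0.48 ± 0.23 in 3 of 3 sets. An exact two-sided sign-flip test of 3 sets cannot go below p = 0.25, which those 4 separated pairs reached.

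Genes side by side on chromosome 5 went different ways. In one block the RefSeq order is Cxcl5, Ppbp, Pf4, Cxcl3, Cxcl15, Cxcl1 and Cxcl2. As gene means, only the last of these rose among the 6 with a probe. Ppbp was at -0.022 ± 0.046, Pf4 at 0.026 ± 0.092 and Cxcl15 at 0.087 ± 0.12 (limma adjusted p = 0.758, 0.75 and 0.308). Single Cxcl15 probes disagreed, at 0.36 and -0.18, and a second Ppbp probe gave 2.27 and 2.24 on the 2 arrays that measured it. The neighbours Cxcl1 and Cxcl2, whose windows above hold the same NF-κB letters, had means of -0.022 and 4.82. Each of these means rests on 1 probe, that of Cxcl2 in 2 sets. In the other block the order is Sdad1, Cxcl9, Art3, Cxcl10, Cxcl11. Art3, an ADP-ribosyltransferase gene, was at 0.14 ± 0.20 (limma adjusted p = 0.213) between Cxcl9 at 0.20 and Cxcl10 at 3.98. Sdad1, beside Cxcl9, rose by 0.39 ± 0.067 (limma adjusted p = 6.53e-04). After Cxcl11 comes Nup54, which had no probe, and then Scarb2 at -0.081 ± 0.063 (limma adjusted p = 0.244). Sdad1 and Scarb2 were both far below Cxcl10.

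**Figure D3:**
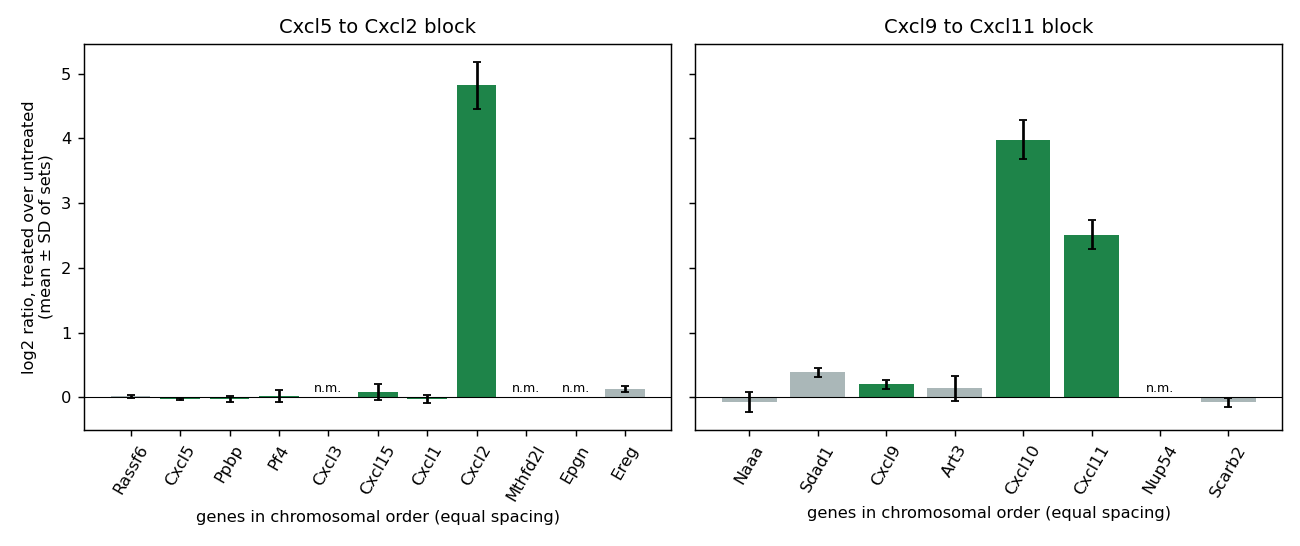
Log2 ratio of treated over untreated RNA (vertical axis, mean ± SD of the sets) for genes in chromosomal order at equal spacing, green for CXC ligands and grey for flanking genes; n.m. marks genes with no probe. Cxcl2 at 4.82 stands beside Cxcl1 at -0.022, and Cxcl10 and Cxcl11 at 3.98 and 2.51 stand beside Art3 at 0.14.

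Genes with the most similar values over the 6 arrays were sought for the 3 members that changed at least 2-fold and were measured on all arrays. Likeness was the Euclidean distance between log2 ratios, which mostly finds genes with a change of the same size. For Cxcl10 the nearest were the interferon-induced Ifit1 (distance 0.56, mean 4.00 ± 0.091), the monocyte attractant Ccl2 (0.71, mean 4.04 ± 0.24) and the predicted gene Gm9706 (0.72, mean 3.87 ± 0.26). For Cxcl11 they were the antibody-binding ubiquitin ligase gene Trim21 (0.46, mean 2.48 ± 0.060), the kinase gene Pim1 (0.55, mean 2.44 ± 0.10) and the complement receptor gene C3ar1 (0.70, mean 2.35 ± 0.093). For Cxcl16 they were the necroptosis effector gene Mlkl (0.22, mean 1.22 ± 0.074), the phosphatase gene Dusp2 (0.22, mean 1.19 ± 0.073) and the oxidase subunit gene Cybb (0.24, mean 1.22 ± 0.094).

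The receptor genes of these ligands lay between -0.63 and 0.58. Of 8 listed receptor genes, 7 were measured on all arrays, 4 rose and 1 fell, with a median of 0.17, beside the 29.0% of all features called and the 14.0% that rose. The count of 5 called was 3 without set 3, and also 3 in fits of the 6 arrays with no block or a random block for the set. Over all features, 3294 were called, and 2784, 3147 and 3412 in these alternatives. Cxcr3, the receptor of Cxcl9, Cxcl10 and Cxcl11, was the one that fell, to -0.63 ± 0.080 (limma adjusted p = 6.80e-05). It was at -0.67, -0.32 and -0.55 with treated RNA in Cy5 and at -0.74, -0.77 and -0.72 with it in Cy3, so all 6 values were below 0. A second Cxcr3 probe, measured on 3 arrays, was at -0.46, 0.24 and 0.36, and with exact zeros kept the gene was at -0.30 (limma adjusted p = 0.00661). Ackr1, a receptor that binds many chemokines without signalling, rose by 0.58 ± 0.15 (limma adjusted p = 4.14e-04) on the 1 of its 2 probes measured on all arrays. The other, measured on 3 arrays, was at 0.31 with treated RNA in Cy5 and at 0.16 and -0.51 with it in Cy3. With exact zeros kept, Ackr1 was at 0.28 (limma adjusted p = 0.0169).

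Cxcr2, the receptor of the ELR ligands, rose by 0.36 ± 0.073 as a mean of 3 probes (limma adjusted p = 0.00101), but the probes disagreed. Probe 7419 rose by 1.03 ± 0.21, whereas probes 5998 and 12722 were at -0.066 ± 0.073 and 0.11 ± 0.081 (limma adjusted p = 4.84e-05, 0.383 and 0.151 in the fit of single probes). Cxcr6, the Cxcl16 receptor, was at 0.23 ± 0.18 (limma adjusted p = 0.0386), with arrays from -0.51 to 0.97. Cxcr5, the Cxcl13 receptor, was at 0.17 ± 0.074 (limma adjusted p = 0.0333), with arrays from -0.50 to 0.70. Both calls ended in fits of the 6 arrays without a set block (limma adjusted p = 0.203 and 0.454) and without set 3 (0.14 and 0.13, limma adjusted p = 0.152 and 0.114); that of Cxcr5 also ended without set 2 (0.17, limma adjusted p = 0.0672). Scale normalization ended both as well (limma adjusted p = 0.0571 and 0.0853), as did keeping exact zeros (0.061 and 0.0514). On the Cy5 arrays alone Cxcr6 was at -0.20, and on the Cy3 arrays alone at 0.66. Cxcr5 was not called on either orientation alone (0.31 and 0.021, limma adjusted p = 0.179 and 0.946). Cxcr5 and Cxcr6 were picked once their values were known. The Cxcl12 receptors Cxcr4 (0.085 ± 0.064) and Ackr3 (-0.039 ± 0.070) were not called (limma adjusted p = 0.224 and 0.597).

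Of 5 other CXC ligand genes, the 3 measured on all arrays, Ppbp, Pf4 and Cxcl15, were not called, none had an unadjusted limma p below 0.05 and a fit with no set block also called 0. Of all 11364 features, 3294 were called, 4366 had such an unadjusted p and the fit with no set block called 3147. The Cxcl15 probes disagreed: probe 3621 rose by 0.36 ± 0.10, and probe 10745 was at -0.18 ± 0.16 (limma adjusted p = 0.00175 and 0.0733 in the fit of single probes). A second Ppbp probe was measured only on the arrays with treated RNA in Cy3 of sets 1 and 2, at 2.27 and 2.24, against a mean of -0.022 for the first.

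Genes that cut, bind or display chemokines had 7 rises and 2 falls among 14, with a median of 0.10, where 14.0% of all features rose and 15.0% fell. Sdc4, a heparan sulphate proteoglycan that holds chemokines at the cell surface, rose by 1.94 ± 0.17 (limma adjusted p = 1.06e-06). Adam17 and Adam10, proteases that can release Cxcl16 from the membrane, moved in opposite directions. Adam17 rose by 0.71 ± 0.11 and Adam10 fell to -0.20 ± 0.013 (limma adjusted p = 6.22e-05 and 0.00911), the latter named after its value was seen; its call ended on either orientation alone (-0.21 and -0.19, limma adjusted p = 0.0762 and 0.0711). The protease gene Ctsb rose by 0.36 ± 0.069 (limma adjusted p = 9.54e-04). Ext1 at 0.034 ± 0.038 and Mmp8 at -0.028 ± 0.088 were not called. Without set 1 the count called was 5 of 14, and over all 11364 features it was 2618, against 3294 with all sets.

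Receptor signalling and desensitisation genes had 2 rises and 2 falls among 13, with a median of 0.034. That is close to the background, in which 29.0% of all features were called, 14.0% higher and 15.0% lower. The GTPase gene Rac2 rose by 0.32 ± 0.078 and the G protein subunit gene Gng2 by 0.22 ± 0.051 (limma adjusted p = 0.00206 and 0.00859). The Gng2 call ended on the Cy5 arrays alone (0.14, limma adjusted p = 0.247). Grk6, a kinase that desensitises receptors, fell to -0.21 ± 0.091 (limma adjusted p = 0.0176), a call that ended without set 1 (-0.16, limma adjusted p = 0.0995) and turned to 0.023 with exact zeros kept (limma adjusted p = 0.885). It also ended on either orientation alone (-0.16 and -0.25, limma adjusted p = 0.158 and 0.0525). The Grk6 probes were at -0.32 and -0.091 (limma adjusted p = 0.00395 and 0.21 in the fit of single probes). Gng5 at 0.063 ± 0.041 and Gnb2 at 0.060 ± 0.054 were not called.

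On the NF-κB route, which is known to drive transcription of many CXC ligands, 5 of 8 rose and 0 fell, with a median of 0.65, where 14.0% of all features rose. By an unadjusted limma p below 0.05, 6 of the 8 differed, and the fit with no set block called 6, all higher. Of all 11364 features, 4366 had such an unadjusted p, and the fit with no set block called 3147, with 1554 higher. Nfkbiz, a nuclear co-factor of NF-κB, rose by 1.73 ± 0.14 over probes at 0.97 and 2.48, Relb by 1.00 ± 0.061 and the inhibitor gene Nfkbie by 0.95 ± 0.091 (limma adjusted p = 1.05e-06, 4.74e-06 and 1.02e-05). Ikbkb at 0.13 ± 0.025 and Ikbkg at 0.075 ± 0.037 were not called (limma adjusted p = 0.0594 and 0.247). Nfkbia, the inhibitor IκBα, was measured in 2 sets and rose by 1.20 ± 0.12 there (n = 2 sets, limma adjusted p = 3.96e-05); with exact zeros kept it was at 0.80 and missed the threshold (limma adjusted p = 0.0627).

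On the interferon route 8 of 11 rose and 1 fell, with a median of 0.74, beside 14.0% and 15.0% of all features. Ifnb1, the interferon-β gene, rose by 3.94 ± 0.65, Irf1 by 2.21 ± 0.22 and Irf7 by 1.99 ± 0.36 (limma adjusted p = 9.49e-06, 1.22e-06 and 1.91e-05). The receptor gene Ifnar1 (-0.077 ± 0.058) and the transcription factor gene Irf3 (-0.051 ± 0.026) were not called (limma adjusted p = 0.261 and 0.432).

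Of 6 genes for the decay or stability of AU-rich RNA, a class that includes many chemokine transcripts, 3 rose and 1 fell, with a median of 0.31, beside the same background of 14.0% and 15.0%. Zfp36, tristetraprolin, which destabilises such RNA, rose by 1.84 ± 0.12 (limma adjusted p = 5.51e-07). Mapkapk2, the kinase that restrains it, rose by 0.69 ± 0.064 (limma adjusted p = 3.37e-05). Zfp36l1 rose by 0.51 ± 0.12 (limma adjusted p = 3.87e-04), though it missed the threshold on the Cy5 arrays alone (0.42, limma adjusted p = 0.0794) and was at 0.19 with exact zeros kept (limma adjusted p = 0.0654). Elavl1 at 0.096 ± 0.092 and Tia1 at 0.069 ± 0.030 were not called.

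**Figure D4:**
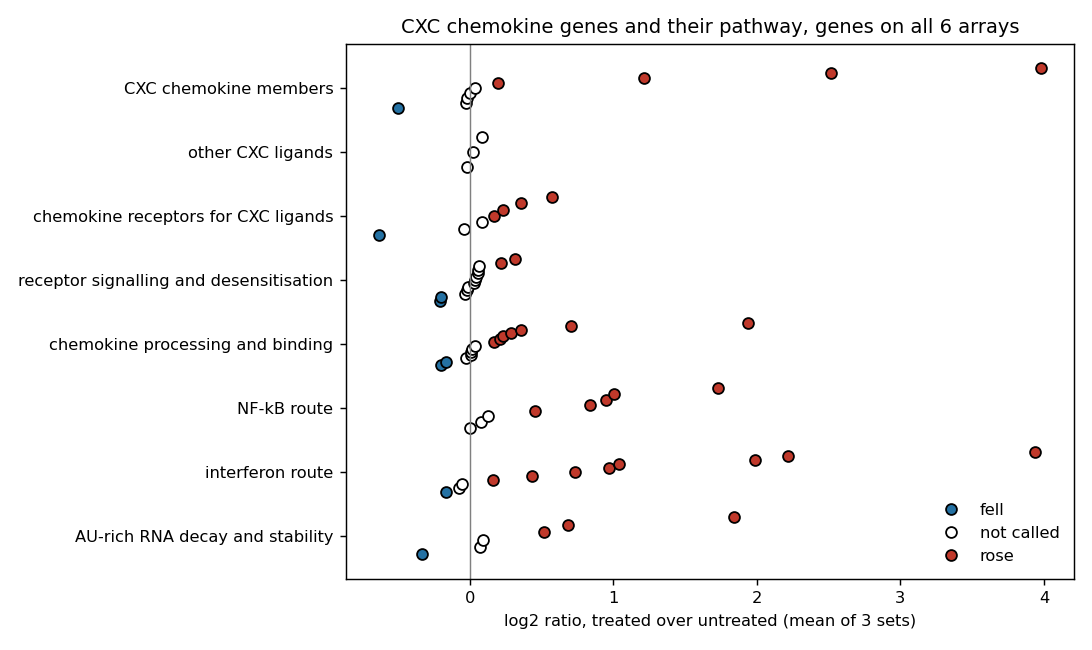
Mean log2 ratio of treated over untreated RNA over 3 sets (horizontal axis) for each gene with a value on all 6 arrays, by list; red rose, blue fell and open circles were not called at limma adjusted p below 0.05. The receptors lie between -0.63 and 0.58, and the interferon route reaches 3.94.

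Ratios show whether a marker changed and not whether it was expressed, so the cell type could not be checked by level. Of 12 macrophage markers, 11 were measured on all arrays, 5 rose and 1 fell, from -0.30 to 1.14, where 14.0% of all features rose and 15.0% fell. Fcgr1 rose by 1.14 ± 0.13, Adgre1 by 1.10 ± 0.13 and Lyz2 by 0.77 ± 0.098 (limma adjusted p = 8.74e-06, 9.75e-06 and 3.35e-05), while Cebpb (0.13 ± 0.052) and Mrc1 (0.091 ± 0.011) were not called. The macrophage marker that fell was Csf1r, at -0.30 ± 0.0665 (limma adjusted p = 0.00241), named after its value was seen. All 8 fibroblast and stromal markers were measured, from -0.029 to 0.12, with 0 called, 0 at an unadjusted limma p below 0.05 and 0 in the fit with no set block. Over all 11364 features these counts were 3294, 4366 and 3147. In endothelial, neutrophil, and T and B cell lists, 1 of 5, 1 of 7 and 1 of 8 rose and 0 fell, within -0.099 to 0.80. Their part in the chemokine values was not tested.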

How the data were processed

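Dual-colour arrays compared total RNA of treated and untreated RAW 264.7 cells. The deposited table gives each probe a log2 ratio on each array, with the log base inferred from the largest value of 6.64, log2 of 100. With exact zeros counted each array's median is 0, and over the other values it lay between 0.0017 and 0.020. The scanner, background correction, normalization and build are not given in the sources used here; compression of the ratios of dim or very bright spots is unknown.

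Exact zeros were taken as not measured. Ratios of arrays whose treated RNA carried Cy3 were multiplied by -1; as deposited, arrays of opposite orientation correlated between -0.716 and -0.283 across probes. Symbols came from the platform annotation (13738 probes with 1 symbol), and 13694 matched the gene table of GRCm38.p6 by Entrez ID with 0 changed. Probes of a gene were averaged, giving 11364 features on all arrays. Set values were tested against 0 with limma 3.58.1 in R 4.3.3 (lmFit, eBayes, two-sided), checked on simulated data.

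All members were named whatever their values; of each pathway list, up to 3 called and 2 uncalled genes with the largest change; for each member past 2-fold, the 3 nearest genes; and a few set genes such as Nfkbia and Adam17. Members and lists were chosen with earlier results of these data known. The alternatives changed normalization, set block, orientation, sets, zeros, probes, variance, threshold and filter. Figures used matplotlib 3.10.9.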

Additional observations from a re-analysis of the deposited data

Results flagged for a closer look

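Cxcl13 stood out because its 3 arrays with treated RNA in Cy5 were all below 0 (-0.64, -0.15 and -0.60) and its 3 sign-turned arrays with treated RNA in Cy3 all above 0 (0.62, 0.59 and 0.38). Its dye effect, the mean of the unturned ratios, was -0.50 (limma adjusted p = 0.166 over set values), and 13.0% of all features also had every array of one orientation opposite in sign to every array of the other. Its 2 probes had dye effects of -1.29 and 0.30.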

How the results depend on the processing

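Among members, Cxcl10, Cxcl11 and Cxcl16 kept their direction and call under all 17, 18 and 17 alternatives, at 2.35 to 4.54, 1.68 to 3.35 and 1.18 to 1.24. Cxcl9 kept its direction but lost its call under 6 of 17. The member count of 5 stood at 5 without a replicate block for the set number and with a random replicate block, ranged from 4 to 5 leaving out each set, and was 3 in the test against a 1.5-fold change. Over all features, 3294 were called, 3147 with no replicate block, 3412 with a random block, 1825 on the Cy5 arrays alone, 2127 at 0.01, 296 against 1.5-fold, and 2618 to 2943 leaving out each set. Scale normalization called 2948, the Cy3 arrays alone 2382, and keeping exact zeros 2953 of 12582. The deviations of a set's sign-turned arrays correlated at -0.484, -0.512 and -0.020 in sets 1 to 3, and 0 of 6 arrays correlated best with its own number, so the numbers were not shown to pair the RNA.

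The receptor count of 5 was 3 under scale normalization, no replicate block, a random block, the Cy5 arrays alone, exact zeros kept and the 0.01 threshold, 0 against 1.5-fold, and 3 to 5 leaving out each set. The signalling count of 4 was 1 on Cy5 arrays, 2 on Cy3 arrays and at 0.01, and 0 against 1.5-fold. The processing count of 9 was 3 on Cy5 arrays, 5 on Cy3 arrays and at 0.01, 1 against 1.5-fold, and 5 to 8 leaving out each set. The interferon count of 9 was 5 against 1.5-fold. The RNA decay count of 4 was 2 on Cy5 arrays and 1 against 1.5-fold. Other ligands went from 0 to 1 as single probes. The dye effect count of 0 was 554 with no block, 151 with a random block and 0 to 6 leaving out each set. Signs turned for Cxcr2 at probe 5998 (-0.066), Cxcr6 on Cy5 arrays (-0.20) and Grk6 with zeros kept (0.023). The cause was not tested.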
